A study of Mus musculus with 29 samples.

Results

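The 7 genes described here, H2-Aa, H2-Ab1, H2-Eb1, H2-DMa, H2-DMb1, Cd74 and Ciita, encode the mouse MHC class II molecules and the proteins that load and switch them on. They were taken from the table by symbol, by a rule that sets no limit on a measured value, and are 7 of the 22537 genes in the table. All 7 passed the filter on low counts in each comparison.

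MHC class II molecules hold peptides from engulfed protein on the surface of dendritic cells, macrophages and B cells, where CD4+ T cells read them. The alpha and beta chains meet in the endoplasmic reticulum with the invariant chain, which blocks the groove until cathepsins cut it away, and the DM molecule then exchanges the last fragment for a peptide. Their transcription depends on CIITA, a coactivator that is itself induced by interferon gamma, and in skeletal muscle class II molecules are known mainly from resident immune cells rather than from the fibres.

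Poly-A RNA of the entire tibialis anterior (TA) muscle, a fast muscle of the lower leg, was sequenced from untreated male C57BL/6 mice of 6m (n = 7), 24m (n = 7) and 28m (n = 8), where m stands for months and the labels give the oldest as 28 months or more. The 24m mice were sequenced with the 6m mice in the first run, and the 28m mice with freshly prepared libraries of the 7 young mice in the second run, which makes 29 libraries of 22 mice. Each older group was set against the 6m libraries of its own run, so age and run are not mixed within a comparison. The design text of the series swaps the group sizes of the older mice (8 and 7), and the labels of single samples were followed. Replicates are separate animals, and replicate numbers below name single mice.

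Total counts were between 17633475 and 33499162 per library. Values are CPM, the counts of a gene scaled to the library total, with TMM factors computed across the 29 libraries. Fold changes, standard errors (SE) and p-values are from edgeR's quasi-likelihood test, and adjusted p-values are by Benjamini-Hochberg across every gene tested. The summed level of 8 skeletal muscle markers was between 122017 and 216865 CPM, whereas the 7 class II genes together had between 81.5 and 411 CPM. The RNA is from whole muscle, so more cells of a type and more RNA per cell cannot be told apart. The libraries also differed in how far counts depended on exonic length. The slope of log2 CPM on log2 length, relative to the mean of the comparison, was between 0.131 and 0.170 in the second-run libraries of the 6m mice, and between -0.347 and 0.0955 at 28m. In the first run, replicate 4 at 24m stood apart with a slope of -0.449, and replicate 4 at 6m had -0.226.

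H2-Ab1 (chr17:34257689-34269419, plus strand), H2-Aa (chr17:34282744-34287823, minus strand), H2-Eb1 (chr17:34305867-34316674, plus strand), H2-DMa (chr17:34119541-34139101, plus strand) and H2-DMb1 (chr17:34153072-34160230, plus strand) lie in the class II region of the MHC in GRCm38 (mm10). Ciita is at chr16:10480059-10528418 on the plus strand. The promoter of a class II gene classically holds an X box, bound by the RFX complex, and downstream of it a Y box, an inverted CCAAT sequence bound by NF-Y. Both were looked for in 250 bases before the transcription start, as GNAAC followed by ATTGG on the same strand at a distance of 20 to 50 bases between their first letters. These letters were chosen after the promoters had been read, and both strands were searched. RefSeq promoters (GRCm38.p6) matched 4 of the 7 genes, H2-Aa, H2-Eb1, H2-DMa and H2-DMb1. The pair was present in 3 of them and is shown because the layout is common to the genes, with GNAAC and ATTGG in capitals, 5′ to 3′ on the strand of the gene.
H2-Aa: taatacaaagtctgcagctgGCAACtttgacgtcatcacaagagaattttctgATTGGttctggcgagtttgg
H2-Eb1: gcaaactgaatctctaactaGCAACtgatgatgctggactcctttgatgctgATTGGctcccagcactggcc
H2-DMb1: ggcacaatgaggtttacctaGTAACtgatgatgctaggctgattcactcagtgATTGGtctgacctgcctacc

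The stretches lie at chr17:34287852-34287924 on the minus strand for H2-Aa, chr17:34305756-34305827 on the plus strand for H2-Eb1 and chr17:34153077-34153149 on the plus strand for H2-DMb1. Positions before the start are counted from the RefSeq start, which for H2-DMa and H2-DMb1 lies inside the gene span given above from the GENCODE annotation. The distance between the first letters of the pair was 33 bases in H2-Aa, 32 in H2-Eb1 and 33 in H2-DMb1, and the Y box began 48, 59 and 61 bases before the start. Of all 32851 promoters of this length, 4.15% held the pair, 33.8% held ATTGG and 79.6% held GNAAC. The pair was not found in either of the 2 promoter windows of H2-DMa (chr17:34122582-34122881 and chr17:34125268-34125567), and a match or its absence describes these letters only.

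The genes were expressed at levels that spanned more than 2 orders of magnitude. Cd74, the invariant chain, was the most abundant, with a median of 31.2 CPM per kb of exonic sequence over the 29 libraries and a range from 20.3 to 101. It was above H2-Eb1 (median 12.6 CPM per kb), the beta chain of the I-E type, in all 29 libraries. C57BL/6 mice are known to lack a functional I-E alpha chain, so the I-A molecule is their class II molecule at the cell surface. H2-Ab1 (8.47 CPM per kb) and H2-Aa (5.66 CPM per kb), the beta and alpha chains of the I-A molecule, followed in this order in all 29. The DM chains were far lower, at 0.868 CPM per kb for H2-DMb1 and 0.583 for H2-DMa, and their order held in 28 of the 29 libraries. Ciita, the coactivator, was lowest of the 7 with a median of 0.134 CPM per kb and between 11 and 150 counts per library. This order rests on annotated exonic lengths, and 2 levels are uncertain. H2-Eb1 overlaps an antisense gene, and the strand setting of the counting is not known. H2-DMb1 has a near-identical copy in H2-DMb2 on the same strand, with which it could share reads. H2-DMb2 itself had between 1 and 16 counts.

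At 6m, replicates 2 and 6 were the 2 highest of the 7 mice for all 7 genes in both runs, in 14 of 14 cases. Cd74 had 105 CPM in replicate 2 and 82.2 in replicate 6 in the first run, and 102 and 82.3 CPM in the second run. The other 5 mice had between 38.9 and 51.0 CPM in the first run and between 37.5 and 47.6 in the second, so no other mouse reached them in either run. H2-Aa had 44.3 and 47.4 CPM in the libraries of replicate 2, and 29.7 and 34.2 in those of replicate 6, against at most 21.5 CPM in any other 6m library. The leukocyte marker Ptprc (CD45) was also highest in replicates 2 and 6, with 9.39 and 6.21 CPM in the first run and 6.82 and 5.63 in the second, and so was the dendritic cell marker Itgax (CD11c), with 1.53 and 0.998 CPM and then 1.49 and 0.860 CPM. The macrophage marker Cd68 was highest in replicate 2 and second in replicate 5 in both runs. The part of these markers in the levels was not tested.

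The second library of a mouse gave nearly the level of the first for the abundant members. On the log2 scale, the SD of the difference between the libraries of a mouse was 0.136 for Cd74, whereas the SD between mice was 0.565. For H2-Aa these SDs were 0.170 and 0.608, for H2-Ab1 0.193 and 0.563, and for H2-Eb1 0.261 and 0.573. The spread between mice was thus larger than that between libraries for Cd74 and the class II chains. For H2-DMa, with 23 to 187 counts per library, the SDs were 0.449 and 0.472. Replicate 4 had the largest difference between its libraries for H2-Aa, H2-Ab1, H2-Eb1, H2-DMa and Ciita, up to 1.02 for H2-DMa. As the mice fell into 2 high and 5 lower ones, no correlation between runs is given.

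**Figure D1:**
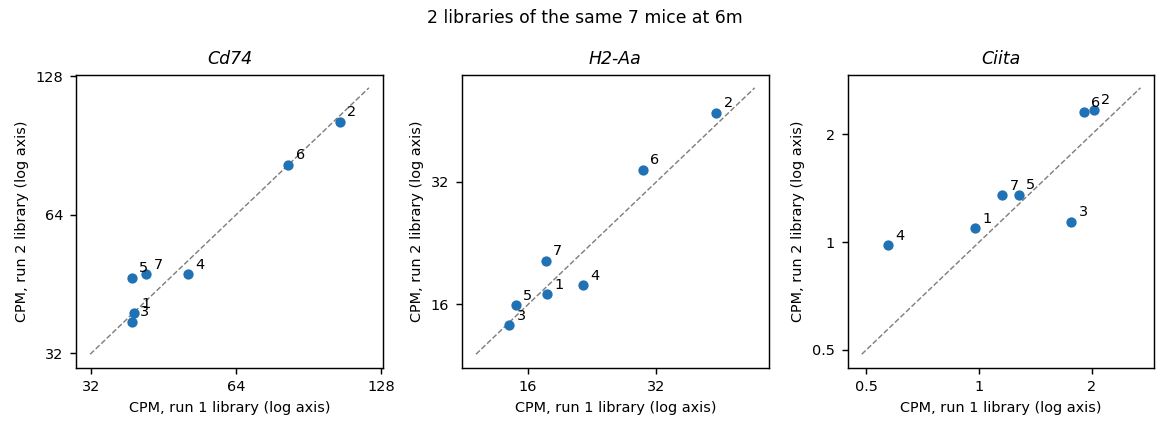
CPM of Cd74, H2-Aa and Ciita in the 2 libraries of each 6m mouse, first run on the horizontal and second run on the vertical axis (both logarithmic), with replicate numbers and the line of equality. Replicates 2 and 6 lie apart from the other 5 mice in the panels of Cd74 and H2-Aa.

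At 28m, 6 of the 7 genes had a positive log2 fold change, as had 50.7% of all genes, and 1 gene, H2-DMa, was called higher (adjusted p = 0.0485). The genome-wide background was high in this comparison, with 47.3% of 12994 genes called in either direction and 24.3% called higher, so 1 of 7 (14.3%) is no more than the share of all genes. By edgeR's quasi-likelihood test, 2 of the 7, H2-DMa and H2-Eb1, had an unadjusted p under 0.05, as had 54.8% of all genes. None of the 7 reached a log2 fold change of 1. The median log2 fold change of the 7 was 0.54, against 0.01 over all genes tested.

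**Figure D2:**
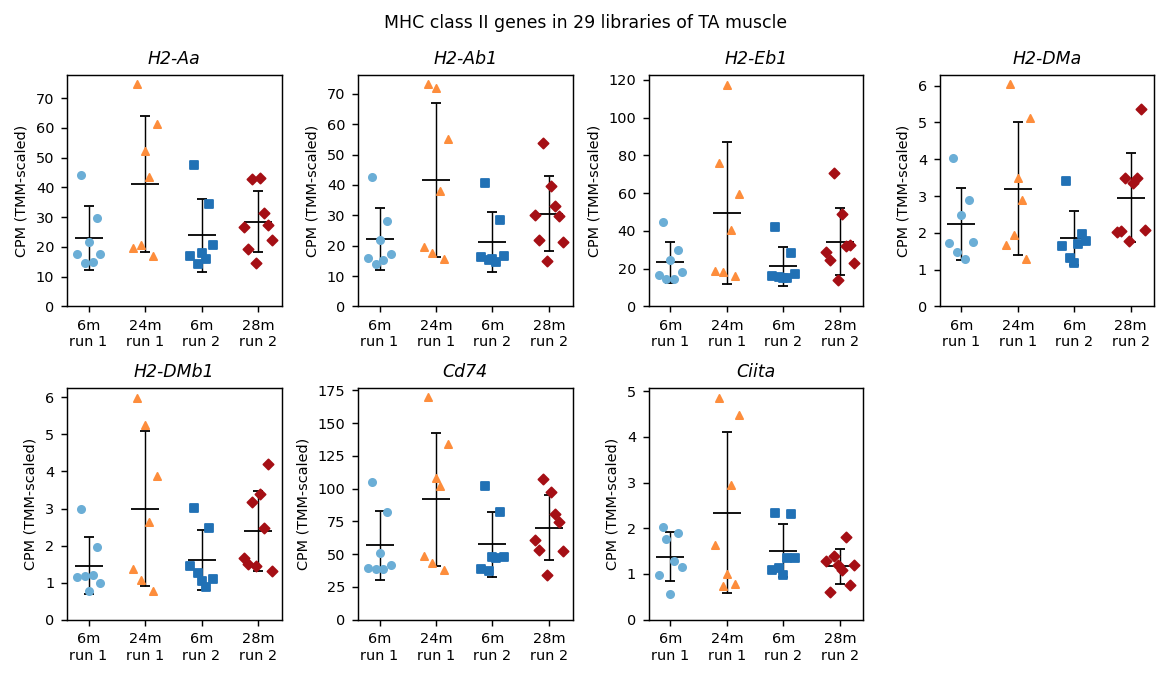
CPM of each class II gene in the 29 libraries, 1 point per library, with the mean and SD of each group (n = 7, 7, 7 and 8). The 24m mice fall into 4 high and 3 low ones for H2-Aa, H2-Ab1, H2-Eb1 and Cd74, and 2 mice at 6m are high in both runs.

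H2-DMa, the alpha chain of the DM peptide exchanger, had between 1.19 and 3.41 CPM at 6m (median 1.70) and between 1.79 and 5.37 CPM at 28m (median 2.72). Of the 8 mice at 28m, 3 were above every second-run 6m library. The first-run library of replicate 2 at 6m had 4.05 CPM, and only replicate 7 at 28m was above it. The groups overlapped at both ends. At 6m, replicate 2 had 3.41 CPM in the second run. Replicate 4 at 28m had 1.79 CPM, below the next 6m mouse at 1.95. The log2 fold change was 0.68 (SE 0.27, 95% interval 0.11 to 1.25, adjusted p = 0.0485 by edgeR's quasi-likelihood test). The adjusted p lay just under the threshold, and the call was lost in 10 of 15 fits that left out 1 mouse, in which the log2 fold change was between 0.49 (adjusted p = 0.106, without replicate 7 at 28m) and 0.69. Over all 15 fits it was between 0.49 and 0.90, the highest without replicate 2 at 6m (adjusted p = 0.0123). It was lost without replicates 1, 3, 4, 5, 6 or 7 at 6m (adjusted p between 0.0702 and 0.0957) and without replicates 3, 5, 6 or 7 at 28m (between 0.0716 and 0.106). Against the first-run libraries of the same 6m mice the log2 fold change was 0.40 (adjusted p = 0.289).

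H2-DMb1, the beta chain of DM, had between 0.891 and 3.03 CPM at 6m (median 1.25) and between 1.32 and 4.21 CPM at 28m (median 2.07). The same mouse, replicate 7, was highest at 28m for H2-DMa and H2-DMb1, and 3 of 8 mice were above every 6m library. The estimate was 0.58 on the log2 scale (95% interval -0.10 to 1.26, adjusted p = 0.144).

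H2-Eb1 had between 14.97 and 41.9 CPM at 6m (median 16.05) and between 13.8 and 70.7 CPM at 28m (median 30.5). Replicates 3 and 5 at 28m, with 70.7 and 48.7 CPM, were above all 6m mice, while replicate 4 was below all of them. The log2 fold change was 0.69 (95% interval 0.03 to 1.36, adjusted p = 0.0792), and DESeq2 gave an adjusted p of 0.0484 for it. It was called without replicate 2 at 6m (adjusted p = 0.0179) or without replicate 4 at 28m (0.0294).

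H2-Ab1 had between 14.7 and 40.8 CPM at 6m (median 16.3) and between 14.8 and 53.9 CPM at 28m (median 29.8). Only replicate 3 at 28m was above all 6m mice. The log2 fold change was 0.54 (95% interval -0.04 to 1.12, adjusted p = 0.116), and it was called without replicate 2 at 6m (adjusted p = 0.0192) or without replicate 4 at 28m (0.0494). H2-DMb1 was also called without replicate 2 at 6m (adjusted p = 0.0460).

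H2-Aa had between 14.2 and 47.4 CPM at 6m (median 17.8) and between 14.4 and 43.1 CPM at 28m (median 27.0). No 28m mouse lay outside the range of the 6m mice. Its log2 fold change was 0.26 (95% interval -0.34 to 0.86, adjusted p = 0.456). It was 0.53 without replicate 2 at 6m, 0.17 without replicate 3 at 6m, and 0.16 and 0.15 without replicates 3 and 5 at 28m.

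Cd74 had between 37.5 and 102 CPM at 6m (median 47.5) and between 34.02 and 107 CPM at 28m (median 67.8). The groups overlapped over nearly their full ranges, with replicate 3 at 28m just above and replicate 4 just below all 6m mice. The estimated log2 fold change was 0.29 (95% interval -0.25 to 0.84, adjusted p = 0.355). It was 0.50 without replicate 2 at 6m and 0.19 without replicate 3 at 28m.

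Ciita was the exception in direction, with between 0.982 and 2.34 CPM at 6m (median 1.35) and between 0.596 and 1.81 CPM at 28m (median 1.20). Replicates 2 and 7 at 28m were below all second-run 6m libraries, but the first-run library of replicate 4 at 6m was lower still, at 0.572 CPM. Its estimate was -0.38 on the log2 scale (95% interval -0.90 to 0.14, adjusted p = 0.213), with -0.24 without replicate 2 and -0.25 without replicate 6 at 6m. A p that misses the threshold does not show that the levels were the same, and the intervals allow a change of up to 1.36 on the log2 scale for H2-Eb1 and down to -0.90 for Ciita.

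**Figure D3:**
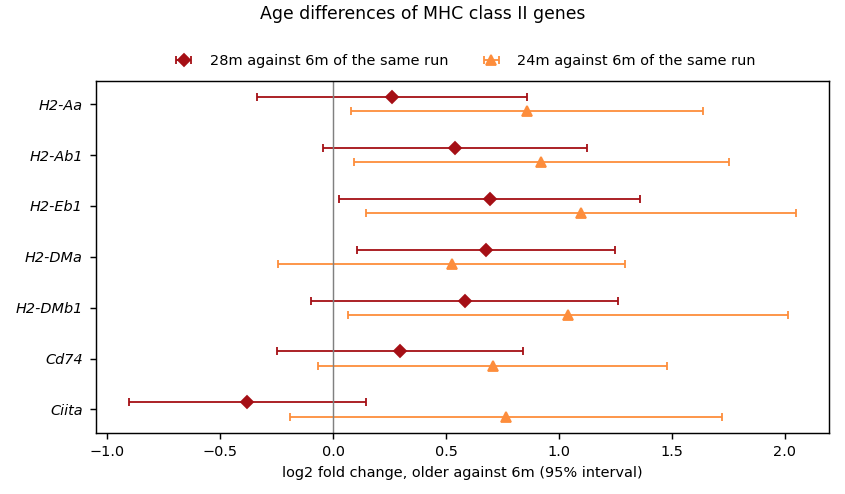
Log2 fold changes of the 7 genes at 28m (diamonds) and 24m (triangles) against the 6m libraries of the same run, with 95% intervals from edgeR's quasi-likelihood fit. At 28m, H2-Eb1 and H2-DMa have intervals above 0, and Ciita is the only gene with a negative estimate.

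When each library was corrected for a smooth trend in exonic length and GC content, the log2 fold change at 28m was 0.36 for H2-Eb1, 0.20 for H2-DMb1, -0.02 for Cd74 and 0.10 for Ciita, so that the last 2 changed sign. H2-DMa had 0.69 (adjusted p = 0.0440), H2-Ab1 0.45 and H2-Aa 0.25. The median of the 7 was then 0.25. The exonic lengths run from 1679 bases for Cd74 and 1681 for H2-DMb1 to 9535 for Ciita.

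At 24m, all 7 genes had positive log2 fold changes, as had 54.3% of all genes, with a median of 0.86 against 0.03 over all genes tested, and none had an adjusted p under 0.05. Only 0.0840% of 13103 genes were called in this comparison. In edgeR's quasi-likelihood test, an unadjusted p under 0.05 was found for 4 of the 7, H2-Aa, H2-Ab1, H2-Eb1 and H2-DMb1, and for 11.8% of all genes, and no member was called by DESeq2 or limma-voom. The members vary together between mice, so the 4 are not independent counts.

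The 24m mice fell apart into high and low animals. Cd74 had 170 CPM in replicate 2, 134 in replicate 7, 108 in replicate 4 and 102 in replicate 5, and between 37.8 and 48.2 CPM in replicates 1, 3 and 6. The first-run 6m libraries had between 38.9 and 105 CPM (median 41.7), so the low mice at 24m were at the level of the lower 6m mice. The estimate at 24m was 0.71 on the log2 scale (95% interval -0.07 to 1.48, adjusted p = 0.449).

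H2-Aa had between 16.98 and 74.7 CPM at 24m (median 43.5) and between 14.5 and 44.3 CPM at 6m (median 17.8), with replicates 2, 4 and 7 above all 6m mice. Its log2 fold change was 0.86 (95% interval 0.08 to 1.64, adjusted p = 0.399). H2-Ab1 had between 15.7 and 73.3 CPM at 24m (median 38.1) and between 13.96 and 42.5 at 6m (median 17.3), with a log2 fold change of 0.92 (0.09 to 1.75, adjusted p = 0.396). The same 3 mice were above all 6m libraries for both chains of I-A.

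H2-Eb1 had a log2 fold change of 1.10 at 24m (95% interval 0.14 to 2.05, adjusted p = 0.386), with between 16.3 and 118 CPM at 24m (median 40.6) and between 14.5 and 44.7 at 6m (median 18.5). Replicate 4 had 118 CPM and the next mouse, replicate 2, had 75.9. Without replicate 4 the log2 fold change was 0.71, below those of Ciita (0.90), H2-DMb1 (0.84), H2-Aa (0.79) and H2-Ab1 (0.73). Without single mice the estimate was between 0.71 and 1.34, and the adjusted p was at least 0.251.

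H2-DMb1 had between 0.770 and 5.99 CPM at 24m (median 2.63) and between 0.780 and 2.99 at 6m (median 1.17), with a log2 fold change of 1.04 (95% interval 0.07 to 2.01, adjusted p = 0.407). H2-DMa had between 1.28 and 6.06 CPM at 24m (median 2.88) and between 1.28 and 4.05 at 6m (median 1.75), with a log2 fold change of 0.52 (-0.24 to 1.29, adjusted p = 0.545), which was 0.29 without replicate 2 at 24m. Replicate 2 was highest at 24m for both chains of DM, as it was for Cd74.

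Ciita had between 0.735 and 4.86 CPM at 24m (median 1.63) and between 0.572 and 2.02 at 6m (median 1.28). Replicates 2, 7 and 5 had 4.86, 4.47 and 2.94 CPM and were above all 6m mice, whereas replicate 4, which was high for the class II chains, had 0.996 CPM of Ciita. The library of replicate 4 had the slope of -0.449 on exonic length, and Ciita has 9535 bases. The part of the slope in this value was not tested. The estimate was 0.77 on the log2 scale (95% interval -0.19 to 1.72, adjusted p = 0.486), and 0.48 without replicate 2 at 24m.

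The age effects at 28m and 24m were also set against each other in a fit that held age and run as terms for all 29 libraries. No member differed between the age effects by edgeR's quasi-likelihood test (adjusted p between 0.409 and 0.873), and 0% of 13455 genes were called. The estimate for Ciita, the 28m effect minus the 24m effect, was -1.13 on the log2 scale (95% interval -2.18 to -0.07, adjusted p = 0.409, unadjusted p = 0.0375), and 1611 of the 13455 genes had an unadjusted p under 0.05. DESeq2 called none of the 7 and limma-voom none. A limma-voom fit with the mouse as a block gave an unadjusted p under 0.05 for 2836 of the 13455 genes. Leaving out replicate 4 at 24m raised the calls over all genes from 0 to 1657, and still none of the 7 was called, with the lowest adjusted p of Ciita over all such fits at 0.0824. For the other members the estimates were -0.58 for H2-Aa, -0.44 for H2-DMb1, -0.39 for Cd74 and for H2-Eb1, -0.36 for H2-Ab1 and 0.17 for H2-DMa, with intervals that reached from -1.61 to 1.11.

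Between the runs at 6m, in the same mice, no member differed (adjusted p at least 0.875 by edgeR's quasi-likelihood test) and 0% of 12884 genes were called. This fit took the 2 libraries of a mouse as separate samples. In it no member had an unadjusted p under 0.05, and 2.77% of all genes did. A fit with the mouse as a block gave an unadjusted p under 0.05 for 1052 of the 12884 genes by the same test. The estimates, second run minus first, were -0.27 for H2-DMa, -0.14 for H2-Eb1, -0.07 for H2-Ab1, 0.02 for Cd74, 0.06 for H2-Aa and 0.13 for H2-DMb1 and for Ciita, and with the mouse as a block the lowest adjusted p of the 7 was 0.498.

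The balance of the members within a library does not depend on library size, and 3 ratios of counts were formed after their values had been seen. The p-values, also those adjusted over 6 tests, do not account for this choice and cannot establish a difference. The ratio of H2-Eb1 to H2-Aa was between 0.821 and 1.10 in the 6m libraries of the second run (median 0.885) and between 0.957 and 1.65 at 28m (median 1.11), with 4 of 8 mice at 28m above all at 6m. The difference on the log2 scale was 0.34 (exact permutation test over the mice, two-sided, p = 0.00497, adjusted over 6 tests p = 0.0252). H2-Ab1 to H2-Aa differed by 0.24 (exact permutation p = 0.00839, adjusted p = 0.0252), with 1.07 ± 0.11 at 28m and 0.906 ± 0.091 at 6m (SD, n = 8 and 7). Ciita to Cd74 differed by -0.67 on the log2 scale (exact permutation p = 0.0277, adjusted p = 0.0553), a difference that missed the threshold after adjustment.

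The slopes on length are given beside the ratios. In the 28m libraries the ratio of H2-Eb1 to H2-Aa was 1.65 in replicate 3 (slope -0.323), 1.26 in replicate 2 (-0.166), 1.18 in replicate 7 (-0.347), 1.13 in replicate 5 (-0.249) and 1.09 in replicate 1 (-0.118). In replicates 4, 6 and 8, with slopes between -0.00466 and 0.0955, it was between 0.957 and 1.02. The 5 mice with the lowest slopes thus had the 5 highest ratios, but not in the same order. For H2-Ab1 to H2-Aa this did not hold, since replicate 5 had the lowest ratio at 28m, 0.924, and replicate 7 had 1.08. With the trend in length and GC content removed, the log2 difference was 0.06 for H2-Eb1 to H2-Aa (exact permutation p = 0.526), 0.15 for H2-Ab1 to H2-Aa (exact permutation p = 0.104) and 0.14, of the opposite sign, for Ciita to Cd74 (exact permutation p = 0.308). H2-Eb1 has 1944 bases of exonic sequence, H2-Ab1 2568 and H2-Aa 3798. At 24m the ratio of H2-Eb1 to H2-Aa was between 0.873 and 1.02 in 6 mice and 2.25 in replicate 4, the library with the slope of -0.449. No difference in the 3 ratios at 24m passed the threshold (exact permutation test, adjusted p = 0.982 for each). The log2 difference in H2-Eb1 to H2-Aa was 0.08 and turned to -0.10 without replicate 4 at 24m (exact permutation p = 0.0385, not adjusted).

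**Figure D4:**
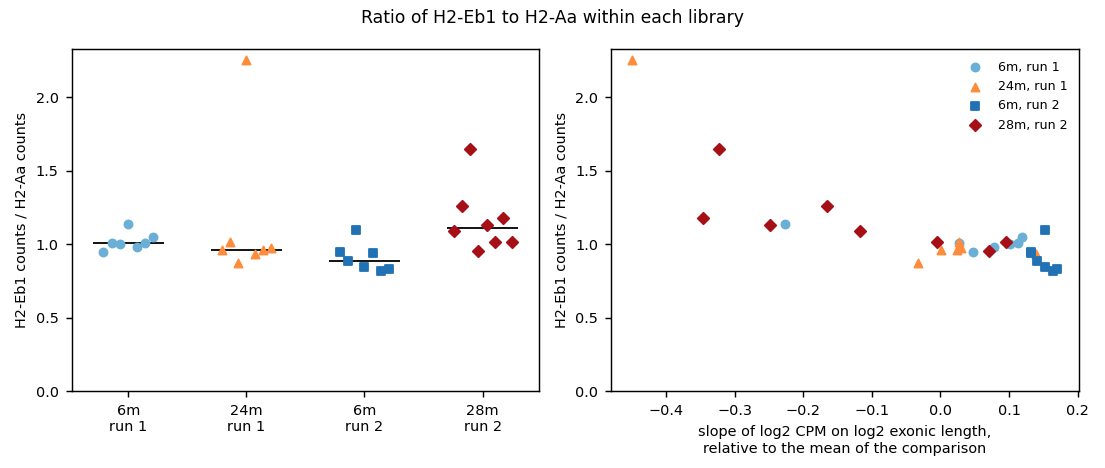
Ratio of H2-Eb1 to H2-Aa counts in each library, by group with medians (left) and against the slope of log2 CPM on log2 exonic length in the same library (right). Slopes are relative to the mean of each comparison. The library with the highest ratio, 2.25 in replicate 4 at 24m, has the lowest slope of its comparison, -0.449. The second-run 6m libraries have ratios of at most 1.10 and slopes of at least 0.131.

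Among the 28m mice, Cd74 was followed closely by H2-Aa, H2-Ab1 and H2-Eb1. Replicate 4, with 34.02 CPM of Cd74, lay apart from the next mouse, which had 52.3 CPM, and the other 7 ran from there to 107 CPM. Over the 3 age groups 30 relations were computed, and p-values were adjusted over the 30. With H2-Aa, Pearson's r was 0.98 (exact permutation p = 9.92e-05, adjusted p = 0.000992) and Spearman's rho 0.95 (exact permutation p = 0.00114, adjusted p = 0.0104), and without the 2 mice farthest from the median r was 0.95. H2-Ab1 and H2-Eb1 each had r = 0.97 and rho = 0.98 (exact permutation, adjusted p = 0.000992 and 0.00595), and r = 0.95 without the 2 farthest mice. The relation was looser for the DM chains, with r = 0.80 and rho = 0.81 for H2-DMb1 (exact permutation p = 0.0181 and 0.0218, adjusted p = 0.0333 and 0.0503) and r = 0.74 and rho = 0.74 for H2-DMa (exact permutation p = 0.0337 and 0.0458, adjusted p = 0.0505 and 0.0917). Without the 2 farthest mice these r were 0.84 and 0.70.

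Ciita was not seen to follow Cd74 at 28m, with r = 0.22 and rho = 0.31 (exact permutation p = 0.596 and 0.462, adjusted p = 0.639 and 0.554, r = 0.32 without the 2 farthest mice). These values are from log2 CPM without correction for length. Ciita has 9535 bases of exonic sequence and Cd74 1679, and the slopes on length at 28m were between -0.347 and 0.0955. The part of the slopes in this correlation was not tested. Markers of immune cells were measured beside the members and their part in the differences was not tested. With Ptprc, the pan-leukocyte marker CD45, r was 0.28 and rho 0.29 (exact permutation, adjusted p = 0.595 and 0.556), and with the macrophage marker Cd68 r was -0.25 and rho -0.38 (adjusted p = 0.639 and 0.469). With Itgax, the dendritic cell marker CD11c, r was 0.31 and rho 0.19 (exact permutation, adjusted p = 0.577 and 0.688), and with Cd79a of B cells r was -0.01 and rho 0.07 (adjusted p = 0.986 and 0.882). Without the 2 farthest mice these 4 r were 0.30, 0.30, 0.40 and 0.19. Replicate 7 at 28m had 20.7 CPM of Cd68 and 10.2 of Ptprc, the highest of its age, with 74.5 CPM of Cd74, whereas replicate 3 had the highest Cd74, 107 CPM, with the lowest Cd68, 1.29 CPM.

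At 24m and 6m the mice formed separate high and low clusters of fewer than 6 mice for Cd74, so no correlation is given there. At 24m, Ptprc had 24.4 CPM in replicate 2, 14.9 in replicate 7, 8.80 in replicate 5 and 8.63 in replicate 4, and between 2.35 and 3.25 CPM in replicates 1, 3 and 6. The 4 mice with the most Cd74 were thus the 4 with the most Ptprc, and also the 4 with the most Cd68 and Itgax. Cd68 was between 3.59 and 25.0 CPM in these 4 mice and at most 2.202 CPM in the other 3. Cd79a was at 0 counts in replicate 4 and did not separate the mice, with 0.576 CPM in replicate 1 and 0.194 in replicate 7.

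**Figure D5:**
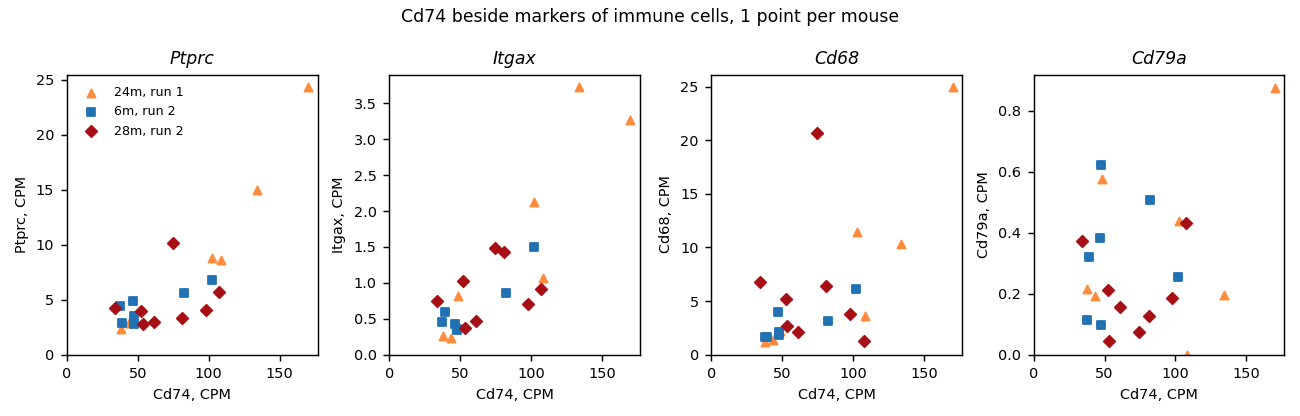
CPM of Ptprc, Itgax, Cd68 and Cd79a against Cd74 in each mouse at 24m, at 6m (second run) and at 28m. Replicate 2 at 24m has the most Cd74 (170 CPM) and Ptprc (24.4 CPM), and replicate 7 at 28m has 20.7 CPM of Cd68 with 74.5 CPM of Cd74.

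The genes whose levels were most like those of the class II molecule were described over the 29 libraries, after the mean of each age and run was subtracted, by Pearson's r with the mean log2 CPM of H2-Aa, H2-Ab1, H2-Eb1 and Cd74. The libraries include those of the few high mice at 24m and 6m, the latter in both runs, so mice for which no correlation is given above enter these r, and no p is given. Of 13451 genes, H2-DMb1 (r = 0.90) and H2-DMa (r = 0.88) ranked first and second. They were followed by Mmp14, a membrane-bound matrix metalloproteinase (0.88), the myeloid lectin receptor Clec12a (0.85), Gpm6b (0.85), the fractalkine receptor Cx3cr1 of monocytes and macrophages (0.84), Neurl3 (0.84), Clec7a, the beta-glucan receptor dectin-1 (0.84), the interleukin 10 receptor chain Il10ra (0.84) and Ly86 (0.84). Ciita had r = 0.59 and rank 796, and Ptprc r = 0.76 and rank 88.

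Of the 10 genes for class II peptide loading and turnover, 5 rose and 1 fell at 28m, beside 24.3% of all genes called higher and 22.9% called lower. Ctsl, a cathepsin that cuts the invariant chain, rose by 0.66 on the log2 scale (adjusted p = 0.000218 by edgeR's quasi-likelihood test), the endosomal tetraspanin Cd63 by 0.70 (adjusted p = 0.00259) and the protease Lgmn by 0.83 (adjusted p = 0.00696). March8, a ubiquitin ligase that lowers surface class II molecules, fell by 0.34 (adjusted p = 0.00691). The other 2 that rose, named after their values were seen, were the cathepsin Ctss (1.59, adjusted p = 0.0227) and the thiol reductase Ifi30 (0.77, adjusted p = 0.0233). For Ctss, replicate 7 at 28m had 75.3 CPM where the median was 10.2, and without it the log2 fold change was 0.72 (adjusted p = 0.0541). Ifi30 was 0.44 without that mouse and was still called. With the trend in length and GC content removed, Ctss (0.97, adjusted p = 0.0957), Ifi30 (0.18, adjusted p = 0.425) and March8 (0.07, adjusted p = 0.464) lost their calls, and Ctsb gained one (0.45), which makes 4 higher and none lower. With the first-run 6m libraries, 2 were higher and 1 lower, and Ctss (1.39, adjusted p = 0.0643), Ifi30 (0.70, adjusted p = 0.0586) and Cd63 (0.49, adjusted p = 0.0515) were not called. Calls over all genes also fell in both settings. The first-run setting called 1559 of 12984 genes higher and 1422 lower, and removal of the trend 2678 and 1856 of 12871. These counts also apply to the lists below.

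Of the 10 genes for transcription of class II, none rose and 4 fell at 28m: the acetyltransferases Ep300 by 1.18 and Crebbp by 0.71 on the log2 scale, Creb1 by 0.35 and the NF-Y subunit Nfya by 0.34. Over all genes, 22.9% were called lower and 47.3% in either direction. Rfx5, the DNA-binding subunit of the RFX complex, had 0.05 (adjusted p = 0.815). With the trend removed only Ep300 was called lower (log2 fold change -0.68), and Crebbp had -0.15, Creb1 0.07 and Nfya -0.04. With the first-run 6m libraries 3 were lower, and Nfya (-0.21, adjusted p = 0.221) was not.

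Of the genes on the path from interferon gamma to Ciita, 9 of 10 were tested, none rose and 3 fell at 28m, Irf2 by 0.55, Jak2 by 0.67 and Jak1 by 0.48 on the log2 scale, where 22.9% of all genes were called lower. Irf1 had 0.45 (adjusted p = 0.0917), and Ifng had at most 2 counts in any library and was not tested. With the trend removed, Jak1 lost its call (-0.22, adjusted p = 0.112), Irf2 (-0.28) and Jak2 (-0.63) were lower, and Irf8, named after its value was seen, was higher (0.60).

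Of 6 MHC class I genes, which were measured for comparison, 5 rose at 28m, where 24.3% of all genes were called higher. H2-K1 rose by 1.06 on the log2 scale (adjusted p = 0.00122 by edgeR's quasi-likelihood test), B2m, the class I light chain, by 0.99, H2-D1 by 0.74 and the peptide transporter subunit Tap2 by 0.55. The other was Tap1 (0.91), named after its value was seen. With the trend removed 4 were higher, and B2m had 0.23 (adjusted p = 0.191). The difference between class I and class II genes was not tested.

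Of 9 partners and costimulatory genes of class II, 6 were tested at 28m and none was called, beside 47.3% of all genes, with Icosl at -0.39 (adjusted p = 0.0510) and Lag3 at 0.63 (adjusted p = 0.129). None of the genes in these lists was called at 24m. The median log2 fold change over all genes tested was 0.01 at 28m and 0.03 at 24m, against 0.57 and 0.57 for peptide loading, 0.03 and -0.03 for transcription, -0.09 and -0.18 for the interferon path and 0.83 and 0.37 for class I.

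Cell type markers were counted in the same way at 28m, where 24.3% of all genes were called higher and 22.9% lower. Of 10 dendritic cell markers, 8 were tested, Xcr1 was higher (1.16) and Cd209a (-0.89) and Zbtb46 (-0.73) were lower, and Irf4 had -0.53 (adjusted p = 0.0533). With the trend removed Zbtb46 had -0.42 (adjusted p = 0.0898), and with the first-run 6m libraries Xcr1 (adjusted p = 0.0564) and Zbtb46 (adjusted p = 0.103) were not called. Calls were also lost for Zbtb46 without replicate 6 at 6m (adjusted p = 0.0526), and for Xcr1 without replicate 7 at 6m (0.0508) or replicate 5 at 28m (0.0523). Of 11 macrophage markers in the table, none was higher and Mertk (-0.99) and Cd163 (-0.79) were lower, while Cd68 had 1.08 (adjusted p = 0.0875) and Fcgr1 1.44 (adjusted p = 0.0696). Of 8 leukocyte markers, Cd52 (1.73) and Coro1a (1.01) were higher, and Coro1a was not called without replicate 7 at 28m (0.53, adjusted p = 0.0529) or with the first-run 6m libraries (adjusted p = 0.0585). It was also lost without replicates 1, 4 or 7 at 6m (adjusted p between 0.0512 and 0.0600) and with limma-voom (0.76, adjusted p = 0.0823). Rac2 had 0.93 (adjusted p = 0.0817). Only Cd79b of 6 B cell markers in the table and Cd28 of 8 T cell markers passed the filter, and neither was called by edgeR's quasi-likelihood test. Without the filter, Cd3g (2.14, adjusted p = 0.0109), Cd3d (1.97, adjusted p = 0.0345) and Cd8a (1.99, adjusted p = 0.0475) of the T cell markers were called higher at 28m, as they were by DESeq2, with at most 20 counts in any library. No B cell marker was called without the filter. Of 6 endothelial markers 5 were lower, Tek (-0.80), Kdr (-1.29), Cdh5 (-0.87), Flt1 (-0.93) and Pecam1 (-0.27). With the trend removed 4 were lower, and Pecam1 had -0.04 (adjusted p = 0.764). With the first-run 6m libraries 3 were lower, and Flt1 (-0.76, adjusted p = 0.0524) and Pecam1 (-0.24, adjusted p = 0.0827) were not called. Pecam1 was also not called without replicate 5 at 6m (adjusted p = 0.0555).

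The summed level of the macrophage markers was between 53.3 and 156 CPM in the second-run libraries of the 6m mice and between 61.1 and 365 CPM at 28m, where replicate 7 was highest. The summed dendritic cell markers were between 9.57 and 18.3 CPM at 6m and between 9.79 and 26.3 CPM at 28m. The B cell markers together were between 0.589 and 5.34 CPM over all libraries, and Pax5 was at 0 in 10 of the 29 libraries. T cell markers together were between 1.26 and 8.71 CPM, with Themis at 0 in 18 libraries. At 24m the summed macrophage markers were between 46.0 and 398 CPM, and replicate 2 was highest, as it was for the 7 class II genes. The summed leukocyte markers were also highest in replicate 2 at 24m, with 176 CPM against 17.2 CPM in the lowest mouse. No gene of these lists was called at 24m. The median log2 fold change at 24m was 0.92 for the leukocyte markers, with 8 of 8 positive, 0.74 for the macrophage markers, with 11 of 11 positive, and 0.58 for the dendritic cell markers, with 6 of 8 positive, against 0.86 for the 7 class II genes and 0.03 over all genes. The part of these markers in the levels of the members was not tested.

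Of 5 other class II genes, none passed the filter at 28m. H2-Ob, the beta chain of the DO molecule that restrains DM, had a log2 fold change of 0.26 at 24m (adjusted p = 0.736), and its age effects differed by -0.41 (28m minus 24m, adjusted p = 0.719). H2-Oa had at most 7 counts and H2-Eb2 at most 21 in any library. The pseudogene H2-Ea-ps, the I-E alpha chain, had 0 counts in each group except at 28m, where 1 library had 1 count.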

How the data were processed

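Counts of reads per gene were deposited by the authors without normalization. Per the labels and methods, single-end reads of poly-A RNA were aligned to mm10 with STAR 2.5.4b, which also counted reads per gene, and the strand column used is not given in the sources used here. All columns were mapped to samples, with 0 left over. The tests used edgeR 4.0.16 (R 4.3.3): filterByExpr, TMM, quasi-likelihood F test, Benjamini-Hochberg adjustment at 0.05. CPM were scaled over the 29 libraries, and log2 CPM used a prior count of 2. Alternatives were DESeq2 1.42.0, limma-voom (limma 3.58.1), other scalings and filters, the 6m libraries of the other run, removal of a trend with length and GC content, each mouse left out and the mouse as a block. On simulated data for the 28m comparison (12994 genes), 183 of 200 changed genes were recovered among 199 called, a false share of 0.0804.

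Which 6m libraries share a mouse was taken from their titles. Their deviations from the run means correlated across 13455 genes with r between 0.218 and 0.814, highest with the own repeat in 7 of 7 mice.

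Symbols were matched to GENCODE for GRCm38, the build of mm10, for exonic length, 20202 directly and 1896 by synonym, and 439 had no match. All 7 members are named in every comparison. Of each list, at most 4 genes with the smallest p at 28m, genes needed for their role and, after their values were seen, others whose calls changed or whose counts were small are named. The 10 genes most like the class II chains are named. Members and lists were chosen with earlier results of these data known. Permutation tests were exact, with scipy 1.17.1 in Python 3.11.15. The count of 0 in a library allows up to 3 counts, for counting error only. Results for some genes of the lists are not given.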

Additional observations from a re-analysis of the deposited data

Results flagged for a closer look

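In 40 groups of 7 or 8 samples, the highest and lowest values were compared with the other samples, and chance alone sets apart about 1 group in 20. Values that stood apart were found 4 times. The ratio of H2-Eb1 to H2-Aa was 2.25 in replicate 4 at 24m, where the next mouse had 1.02, and the ratio of H2-Ab1 to H2-Aa was 1.38 in the same library, where the next had 1.01. That library had the lowest slope on exonic length in its comparison, -0.449. At 28m the ratio of H2-Eb1 to H2-Aa was 1.65 in replicate 3, with 1.26 in the next mouse. H2-DMa had 3.41 CPM in replicate 2 of the second-run 6m libraries, where the next had 1.95 CPM, and the first-run library of the same mouse had 4.05 CPM.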

How the results depend on the processing

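The number of class II genes called at 28m was 1, 2 with DESeq2, and 0 with limma-voom, without a filter on low counts, with the first-run 6m libraries and with those libraries without their replicate 4, which was added after seeing the data. Leaving out single mice gave between 0 and 4. The log2 fold change of H2-DMa was 0.64 with limma-voom (adjusted p = 0.0615), 0.66 without a filter (0.0605), and 0.40 and 0.43 in the last 2 settings (0.289 and 0.281). Removal of the trend in length and GC content turned Cd74 at 28m to -0.0163 and Ciita at 28m to 0.10, and the cause was not tested.

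At 24m, between the age effects and between the runs, 0 members were called in all settings tried. With the mouse as replicate block the counts were 0 between the runs and 0 between the age effects, as in the fits without it, and the block changed no call. Leaving out single mice gave estimates of the difference between age effects from -0.628 to 0.0120 for H2-Eb1 and from -0.0141 to 0.398 for H2-DMa, and of the difference between runs from -0.0180 to 0.0469 for Cd74.

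The ratios within a library and their alternatives were added after seeing the data. Removal of the trend gave 0.0591, 0.152 and 0.143 at 28m for H2-Eb1 to H2-Aa, H2-Ab1 to H2-Aa and Ciita to Cd74, and -0.0213, -0.00659 and 0.0771 at 24m, where the values were 0.0801, 0.0105 and -0.116. Leaving out single mice gave from 0.26 to 0.39, from 0.20 to 0.28 and from -0.82 to -0.57 at 28m, and from -0.0975 to 0.130, from -0.0726 to 0.0441 and from -0.303 to 0.0990 at 24m. Without replicate 4 at 24m, H2-Eb1 to H2-Aa was -0.10 (exact permutation p = 0.0385).

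Over all genes, 6140 were called at 28m and 2981 with the first-run 6m libraries, and at 24m 11 were called, 46 with the second-run 6m libraries, 215 with DESeq2, 4 with at least 10 counts in every library and 7 with the trend removed. Leaving out single mice at 24m gave between 4 and 30 genes. Removal of the trend changed the split at 28m from 3159 higher and 2981 lower to 2678 and 1856. Counts of H2-DMa, H2-DMb1 and Ciita were between 11 and 187 per library, which limits the precision of single values.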
